A study of Mus musculus with 12 samples.

Results

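The genes described here are 9 genes of epithelial sodium and potassium transport, chosen by name and not by any measured value, among 23870 named genes of the series. For each, the longest RefSeq transcript interval was taken. The values are IgG background: chromatin was immunoprecipitated with a nonspecific IgG, and the reads that fell on each interval, introns included, were counted. The cells were mpkCCD cells, clone 11, a single clone of transformed mouse renal principal cells, at passages 6 to 10. They were grown to confluence on permeable supports in medium with 2% dialyzed serum and then kept without serum for 24 h. One group of 3 samples had 0.1 nM dDAVP, a vasopressin analog selective for the V2 receptor, in the medium throughout, and the other group of 3 had its vehicle. The study asked which genes vasopressin regulates by transcription. The IgG samples are the background against which its RNA polymerase II signal would be read, while its 6 Pol II samples were left out (not analysed here).

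These genes form the aldosterone-sensitive route by which the collecting duct reabsorbs sodium and secretes potassium. Sodium enters the principal cell through the epithelial sodium channel ENaC, built from the subunits of Scnn1a, Scnn1b and Scnn1g, and leaves through the basolateral sodium pump, whose beta subunit is Atp1b1. Potassium leaves to the urine through the apical channel Kcnj1, also called ROMK. The mineralocorticoid receptor Nr3c2 switches on the kinase Sgk1, which phosphorylates the ubiquitin ligase Nedd4l and so slows removal of ENaC from the membrane, while Hsd11b2 inactivates glucocorticoids that would otherwise occupy the receptor. Vasopressin also raises ENaC activity. All of this concerns RNA and protein, whereas IgG reads come from DNA, so the densities below are not expression levels and cannot check the identity of the cells.

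Base composition differed widely within these genes, and 3 start regions are shown because the counts can be split at them. They are from RefSeq on GRCm38.p6, which has the coordinates of mm10, and run from 250 bases before to 50 bases after an annotated start, 5′ to 3′ on the plus strand, with CG dinucleotides in capitals. The first is the start of the shortest Sgk1 transcript, chr10:21994416-21994715, with 69.7% GC and 28 CG dinucleotides. The second is a start further upstream in Sgk1, chr10:21985854-21986153, with 45.0% GC and 4 CG dinucleotides. The third is the start of the shorter Kcnj1 transcript, chr9:32393735-32394034, with 43.7% GC and 2 CG dinucleotides. The median over 32851 start regions in the table was 52.7% GC and 7 CG dinucleotides, and 6 of the 9 genes had entries there that could be shown.
Sgk1 short transcript start: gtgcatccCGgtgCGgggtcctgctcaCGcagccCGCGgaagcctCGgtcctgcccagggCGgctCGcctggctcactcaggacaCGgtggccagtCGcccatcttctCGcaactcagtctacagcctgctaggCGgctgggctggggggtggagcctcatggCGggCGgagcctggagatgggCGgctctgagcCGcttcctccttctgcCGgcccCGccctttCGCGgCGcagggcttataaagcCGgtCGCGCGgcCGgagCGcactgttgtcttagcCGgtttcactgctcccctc
Sgk1 upstream start: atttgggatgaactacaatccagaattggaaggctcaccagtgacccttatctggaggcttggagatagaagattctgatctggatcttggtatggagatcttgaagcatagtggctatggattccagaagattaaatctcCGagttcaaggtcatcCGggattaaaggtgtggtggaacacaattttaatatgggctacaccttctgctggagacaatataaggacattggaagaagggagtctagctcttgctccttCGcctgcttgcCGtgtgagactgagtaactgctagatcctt
Kcnj1 short transcript start: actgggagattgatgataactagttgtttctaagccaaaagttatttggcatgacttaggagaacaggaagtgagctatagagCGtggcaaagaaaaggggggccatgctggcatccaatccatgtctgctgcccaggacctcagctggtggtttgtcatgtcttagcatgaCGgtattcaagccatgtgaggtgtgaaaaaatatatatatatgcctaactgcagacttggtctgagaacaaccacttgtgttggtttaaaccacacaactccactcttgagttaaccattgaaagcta

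The libraries held 10588927 to 19748658 reads over all intervals. Experiments 1 and 2 of each group agreed over all genes within about the noise of counting, with a chi-square over its degrees of freedom of 1.02 for dDAVP and 1.01 for vehicle, against 5.02 to 89.1 for other pairs within a group. Each such pair was taken as a single sample, so n = 2 in each group. Experiment 3 of the dDAVP group stood apart from all other libraries, with ratios of 85.3 to 148.0. The labels do not call the experiments separate cultures, and the spread that the p-values use may be technical.

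The 3 ENaC subunit genes lie on chromosomes 6 and 7. On mm10, Scnn1a spans 125321340 to 125344942 on chromosome 6, with 50.2% GC. Scnn1g spans 121734507 to 121768477 and Scnn1b 121865038 to 121918728 on chromosome 7, 96.6 kb apart with no other named interval between them, at 45.7% and 48.8% GC. The others are Sgk1 on chromosome 10 (21882184 to 21999902, 43.8% GC), Nedd4l on chromosome 18 (64887756 to 65217826, 45.5%), Kcnj1 on chromosome 9 (32372418 to 32399194, 45.8%) and Atp1b1 on chromosome 1 (164437099 to 164458355, 47.7%, minus strand). Nr3c2 (76902508 to 77243639, 41.4%) and Hsd11b2 (105518746 to 105523988, 54.8%) share chromosome 8. Lengths ran from 5.2 kb for Hsd11b2 to 341.1 kb for Nr3c2, against a median gene of 14.2 kb and 45.7% GC. In GENCODE vM21 the gene Cog7, on the opposite strand, overlaps 73.3% of the Scnn1b interval, and reads from DNA cannot be assigned to either gene. Among the deposited intervals, one named Mir466p, though 424163 bases long and so far longer than a microRNA gene, overlaps 22374 bases of Nedd4l. That of Nme7 overlaps 198 bases of Atp1b1, and reads in either overlap count for both intervals.

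Except where stated, density is given as reads per kb over that of the median gene of the same library, so that 1 is the median gene. Its 95% intervals are exact Poisson intervals and cover counting error only. The receptor Nr3c2 and the kinase Sgk1, which it induces, were the densest of the 9 in most libraries. Sgk1 had 1.35, 1.28 and 0.969 in dDAVP experiments 1, 2 and 3, from 1252, 1129 and 1065 reads. With vehicle it had 1.28, 1.30 and 1.49, from 969, 934 and 1852 reads. The libraries of the 2 groups overlapped, and dDAVP experiment 3 was the lowest. Nr3c2 had 1.03, 1.03 and 0.656 with dDAVP and 1.14, 1.13 and 1.28 with vehicle, so every dDAVP library lay below every vehicle library. Its counts were among the deepest, 2091 to 4603 reads, and in dDAVP experiment 3 its interval was 0.629 to 0.685.

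The ENaC subunit genes lay below the median gene in the 5 libraries other than dDAVP experiment 3. Scnn1a, the subunit without which the channel conducts poorly, had 0.853, 0.761 and 1.90 with dDAVP and 0.791, 0.638 and 0.654 with vehicle. Its groups overlapped, and dDAVP experiment 3, with 418 reads against 159 and 135, was far above the other 5 libraries. Scnn1b had 0.493, 0.510 and 0.734 with dDAVP and 0.437, 0.409 and 0.421 with vehicle, and its groups did not overlap. Scnn1g had 0.50, 0.599 and 0.675 with dDAVP and 0.650, 0.656 and 0.641 with vehicle, with overlap. The neighbouring Scnn1b and Scnn1g thus differed most in the vehicle libraries, where the 95% intervals of Scnn1b (0.342 to 0.513) and Scnn1g (0.547 to 0.776) did not meet.

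On this scale Nedd4l was the steadiest of the 9, from 1174 to 1931 reads. It had 0.574, 0.584 and 0.506 with dDAVP and 0.567, 0.583 and 0.554 with vehicle. Its highest library was 1.15 times its lowest. Without division by the median gene Sgk1 was steadier, its highest library 1.12 times its lowest, against 1.26 for Nedd4l. Kcnj1 had 0.936, 0.909 and 0.536 with dDAVP and 0.749, 0.844 and 0.824 with vehicle. Here dDAVP experiment 3 was the lowest library and dDAVP experiments 1 and 2 the highest. Atp1b1 had 0.739, 0.776 and 0.967 with dDAVP and 0.819, 0.817 and 0.677 with vehicle. Hsd11b2, the shortest gene, had 0.580, 0.685 and 2.08 with dDAVP, from 24, 27 and 102 reads, and 0.890, 0.594 and 0.470 with vehicle, from 30, 19 and 26 reads. Its interval in vehicle experiment 1, 0.600 to 1.27, shows how little those counts fix its level.

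**Figure D1:**
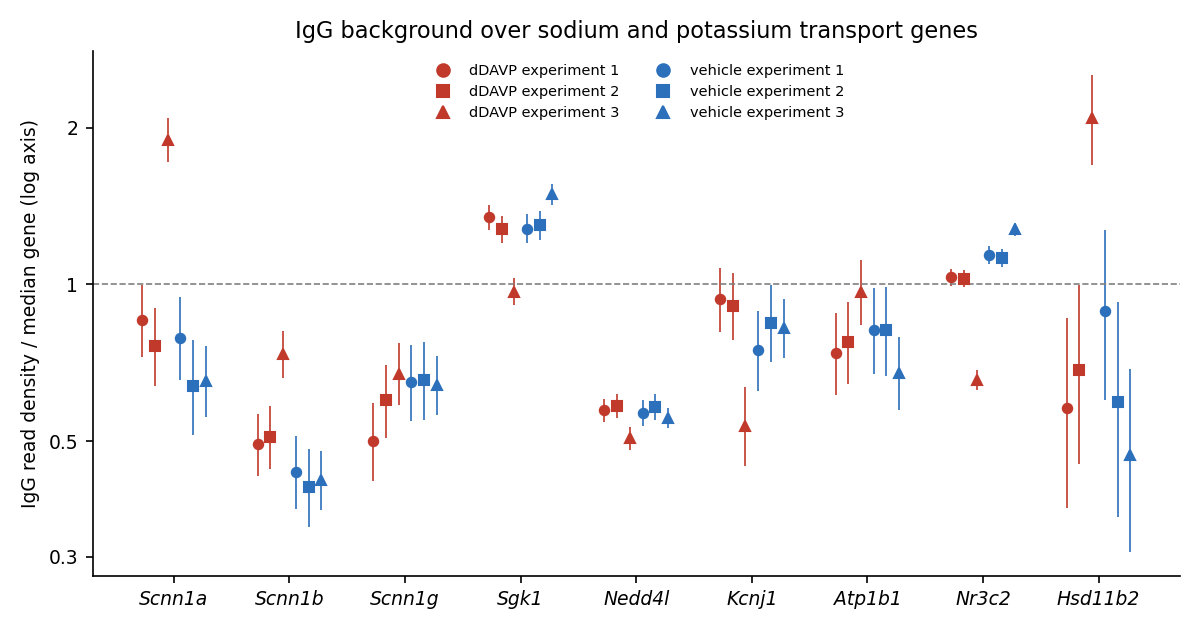
IgG read density of each of the 9 genes over the median gene of the same library, on a log axis, for the 3 dDAVP (red) and 3 vehicle (blue) libraries; bars are 95% Poisson intervals and the dashed line is the median gene. In dDAVP experiment 3 (red triangles) Scnn1a and Hsd11b2 reach 1.90 and 2.08, while Sgk1, Kcnj1 and Nr3c2 have their lowest values there.

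Over the 4 samples the order of mean density was Sgk1 (1.26), Nr3c2 (1.02), Scnn1a (1.02), Hsd11b2 (0.982), Atp1b1 (0.805), Kcnj1 (0.770), Scnn1g (0.629), Nedd4l (0.554) and Scnn1b (0.520). Only Sgk1 stood above its next gene in all 6 libraries. Scnn1a and Hsd11b2 ranked above Atp1b1 and Kcnj1 only with dDAVP experiment 3 included. Without that library the plain mean over the other 5 libraries, each counted once, was 0.739 for Scnn1a and 0.643 for Hsd11b2. Both were below Kcnj1 (0.852) and Atp1b1 (0.766). In those 5 libraries Sgk1 (1.28 to 1.49) and Nr3c2 (1.03 to 1.28) were again the densest, and Scnn1b (0.409 to 0.510) was the lowest, below the range of Nedd4l (0.554 to 0.584). The median over the 9 genes was 0.742 ± 0.011 in dDAVP samples and 0.688 ± 0.049 in vehicle samples (SD, n = 2 each).

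Each gene was then set against the 100 genes of the same chromosome nearest to it in length, and its percentile is a description with no test. Nedd4l was at percentile 0 in each of the 3 vehicle libraries, the least dense of its set of chromosome 18 genes of 119.5 to 887.5 kb. It was at 1 and 2 in dDAVP experiments 1 and 2 and at 50 in experiment 3. Scnn1b was at 1 in each vehicle library, at 4 in dDAVP experiments 1 and 2 and at 61 in experiment 3. Scnn1a was at 1 to 10 with vehicle, at 20 and 8 in dDAVP experiments 1 and 2, and at 92 in experiment 3. Sgk1 (46 to 72) and Nr3c2 (36 to 53) stayed near the middle of their sets in all 6 libraries.

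The 100 genes nearest in GC content on any chromosome were taken as a second set. There Scnn1b was at percentiles 1 to 9, Nedd4l at 6 to 17 and Scnn1g at 6 to 17 in all 6 libraries, dDAVP experiment 3 included. Sgk1 was at 73 to 84. Scnn1a fell from its 92 in dDAVP experiment 3 to 52, with 16 to 37 elsewhere. Atp1b1 was at 19 to 29 and Kcnj1 at 15 to 34. Hsd11b2 ranged from 23 to 72 on its few reads, and Nr3c2 was at 81 in dDAVP experiment 3 and at 43 to 61 elsewhere.

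**Figure D2:**
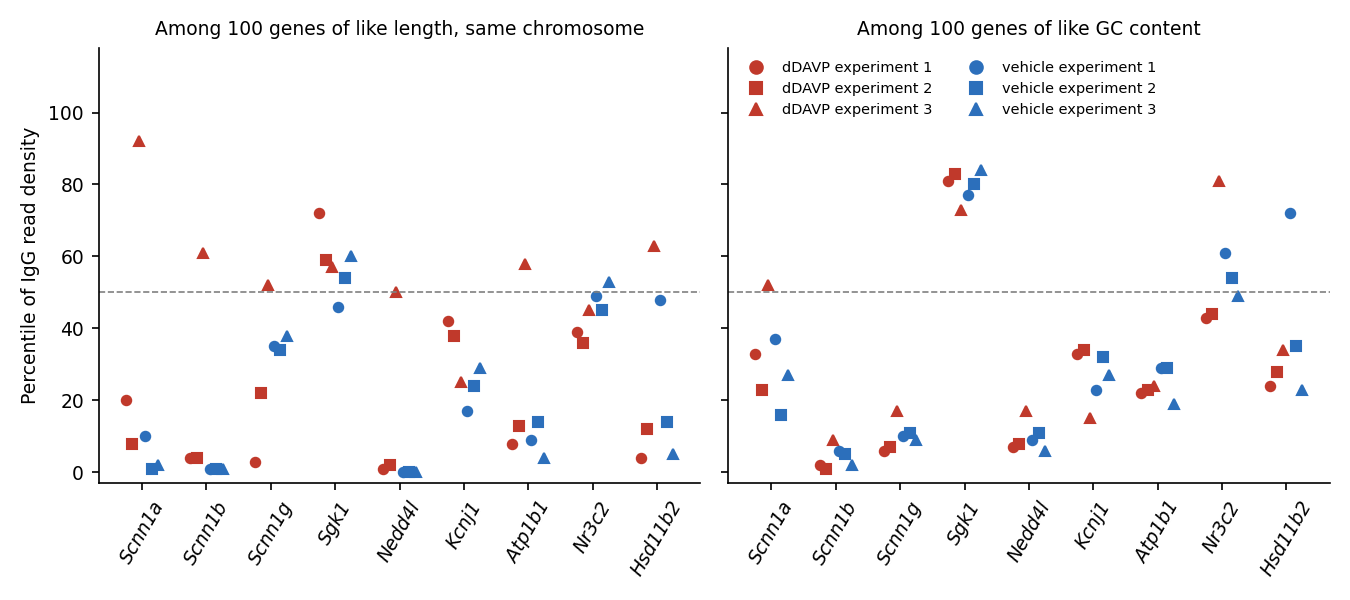
Percentile of each gene's IgG read density, per library, among the 100 genes of its chromosome nearest in length (left) and among the 100 genes nearest in GC content (right); the dashed line is the middle. On the left the red triangles of dDAVP experiment 3 put Scnn1a at 92 and Nedd4l at 50, and on the right these are 52 and 17.

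Density in this comparison was taken without division by the median gene. In dDAVP experiment 3 its ratio to the mean of experiments 1 and 2 followed GC content among the 9 genes. On the log2 scale it was 2.04 for Hsd11b2 and 1.55 for Scnn1a, the members richest in GC, and 0.86 for Scnn1b, 0.67 for Atp1b1 and 0.61 for Scnn1g. It was 0.12 for Nedd4l, −0.12 for Sgk1 and −0.33 for Nr3c2, the member poorest in GC. The median gene itself was denser on this scale in dDAVP experiment 3 (1.13) than in experiments 1 and 2 (0.908 and 0.907). All these log2 ratios are therefore higher than they would be over the median gene, where Nedd4l fell from 0.574 and 0.584 to 0.506. Kcnj1 stood apart at −0.47, below the 10th percentile (−0.08) of the 2154 genes within 1 GC point of it, whose median was 0.45. The other 8 genes lay between the 10th and 90th percentiles of genes of like GC. Across the 9 genes Spearman's rho with GC was 0.833, and it was 0.935 across 16185 genes with at least 300 reads in all. Genes of one library are not independent replicates, so no p is given. The same ratio in the vehicle group ran the other way with GC, from 0.10 for Sgk1 to −0.77 for Hsd11b2 (rho of −0.750 over the 9).

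**Figure D3:**
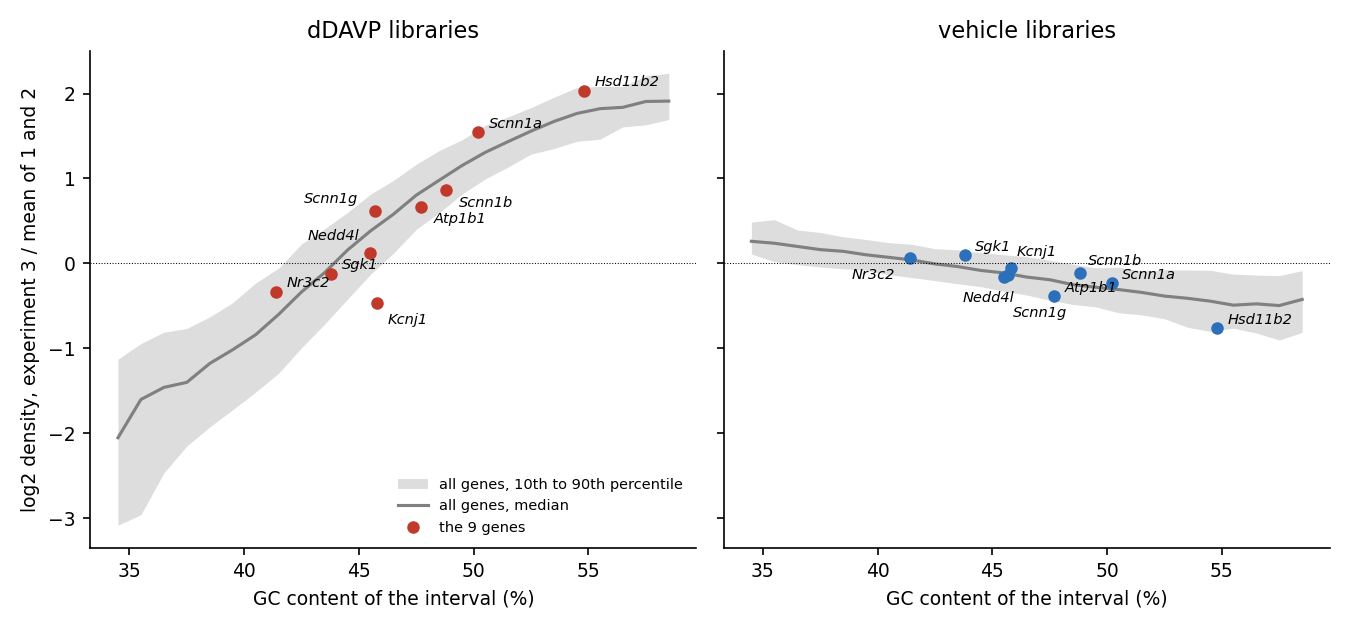
Log2 ratio of density in experiment 3 to the mean of experiments 1 and 2, against the GC content of the interval, for dDAVP (left) and vehicle (right); points are the 9 genes, the line is the median of all genes and the band their 10th to 90th percentile. In the dDAVP group the points climb with GC from Nr3c2 to Hsd11b2, with Kcnj1 below the band, and in the vehicle group they slope down. The line and band are over genes with at least 300 reads in all. Density here is not divided by the median gene.

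Sgk1 allowed a closer view, since its 6 deposited intervals share their 3′ end and begin at different starts. Subtracting each interval from the next longer one gives the reads of the segment between 2 starts, and reads that span a start go with the shorter interval. In the first 96.5 kb (43.5% GC) dDAVP experiment 3 had 0.953 times the median gene, against 1.27 to 1.55 in the other 5 libraries. In the 6.12 kb after the upstream start printed above (43.5% GC) it had 0.473 against 1.26 to 1.70, from 27 reads. The order then turned. In the next 1.67 kb (50.3% GC) dDAVP experiment 3 had 1.67 against 0.456 to 1.12. In the 0.78 kb before the start of the short transcript (67.4% GC), which holds most of the CG-rich sequence printed above, it had 1.79 against 0.343 to 0.802.

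These segments are short and their counts small. Their ratios of experiment 3 to experiments 1 and 2 are of densities over the median gene, unlike the log2 ratios above. The intervals of their ratios, like those of Kcnj1 that follow, treat each read as a separate molecule and cover counting error only, so they are too narrow where reads are copies. Whether copies were removed is not given in the sources used, and the covered share of dDAVP experiment 3 (median of 0.580 of an even spread) was the lowest of the 6 libraries. Between the last 2 starts there were 13 reads in dDAVP experiment 3 and 3 and 2 in experiments 1 and 2, a ratio of 4.29 with a 95% interval of 1.44 to 15.4 (exact binomial). For the 1.67 kb segment the ratio was 2.68 (1.39 to 5.35), and for the 6.12 kb segment 0.351 (0.223 to 0.535). The 5.24 kb from the short transcript's start to the 3′ end, where the commonly described kinase is encoded, had a ratio of 1.67 (1.24 to 2.24) at 44.9% GC. The vehicle group's ratios had intervals that included 1 in each segment but the first, where it was 1.19 (1.11 to 1.28). The longest Sgk1 interval is therefore mostly upstream sequence, and its density in dDAVP experiment 3, 0.969, mixes segments from 0.473 to 1.94.

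**Figure D4:**
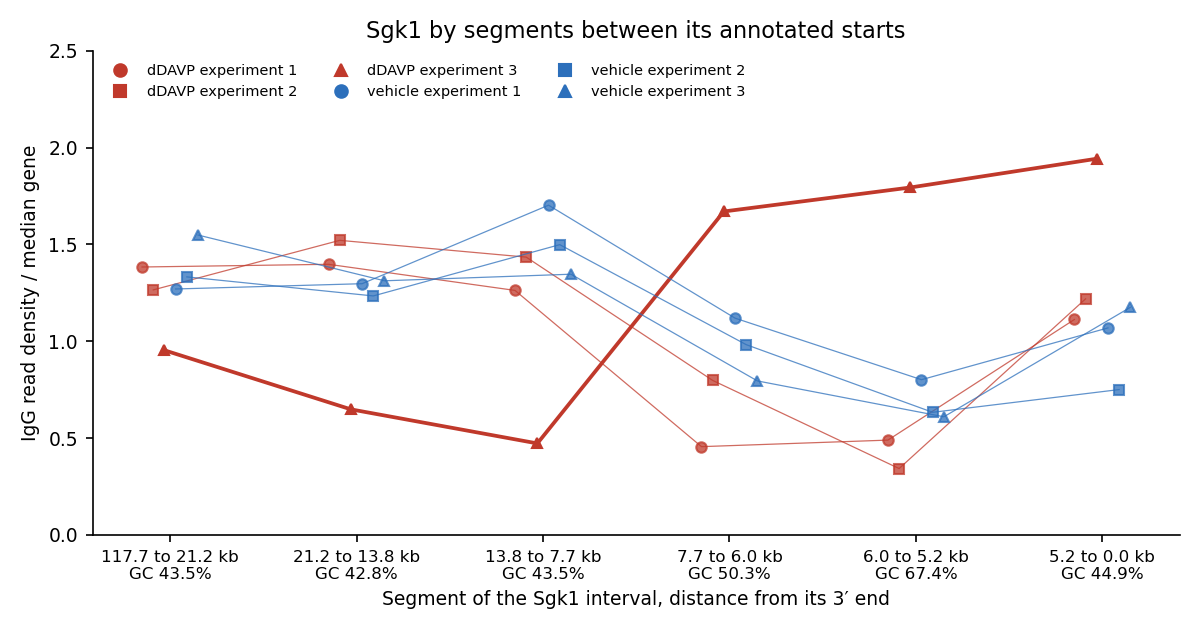
IgG read density over the median gene in 6 segments of the Sgk1 interval, from the 5′ end (left) to the 3′ end (right), labelled by distance from the 3′ end and GC content; points are libraries, joined by lines. dDAVP experiment 3 (thick red line) is the lowest library in the first 3 segments and the highest in the last 3.

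Kcnj1 and Nedd4l each had 2 intervals. In Kcnj1 the 5.21 kb that begin at the start printed above (44.2% GC) had 0.288 in dDAVP experiment 3 from 14 reads, against 0.627 to 1.02 elsewhere, and the ratio to experiments 1 and 2 was 0.335 (0.174 to 0.601). The 21.6 kb before it (46.2% GC) had a ratio of 0.635 (0.51 to 0.786). Both ratios are over the median gene, so they are not on the scale of the log2 ratio of Kcnj1 given above. The density of each part of Kcnj1 was lower in that library than in the other 5. In Nedd4l the first 135.8 kb and the last 194.3 kb had similar densities, 0.471 to 0.573 and 0.531 to 0.603 over the 6 libraries.

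The covered fraction is the share of an interval's bases with at least 1 read. For Scnn1a it was 27.2%, 22.5% and 36.9% with dDAVP and 15.6%, 14.6% and 28.6% with vehicle. For Nr3c2 it was 31.7%, 30.1% and 13.4% with dDAVP and 22.3%, 22.3% and 47.8% with vehicle. Set against the share that the same number of 50-base reads would cover if spread evenly, Nr3c2 reached 0.507 in the third dDAVP library, 0.728 and 0.765 in the first 2 vehicle libraries, and 0.941 to 0.97 in the other 3 libraries. For genes with at least 50 reads the median was 0.580, then 0.748 and 0.757, in those same libraries, and 0.948 to 0.964 in the other 3, and the medians of the 9 genes, 0.596, 0.732, 0.764 and 0.944 to 0.955, lay close to these.

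Treatment was compared with edgeR's quasi-likelihood test on the counts of all intervals, with Benjamini-Hochberg adjustment at 0.05. It called 0 of the 9 genes and 0 of 30912 intervals (0%), with 0 of the 9 and 236 of all intervals at an unadjusted p under 0.05. DESeq2 called 0 as well, with 0 of the 9 and 1117 of all at that p. The log2 ratio of dDAVP to vehicle was 1.15 ± 0.73 (SE) for Hsd11b2, with a 95% interval of −0.66 to 2.97, and 0.99 ± 0.49 for Scnn1a (−0.23 to 2.21). It was 0.56 ± 0.36 for Scnn1b and −0.49 ± 0.40 for Nr3c2. For these 4 genes edgeR's Benjamini-Hochberg adjusted p was 0.619. The other 5 ran from −0.26 for Sgk1 to 0.22 for Atp1b1, with edgeR adjusted p of 0.672 to 0.951. In all, 4 were higher and 5 lower, with a median of −0.04 against 0.01 over all intervals, of which 50.4% were higher.

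Without dDAVP experiment 3, 6 of the 9 were higher and 3 lower, where 49.8% of all intervals were higher. There the log2 ratio was 0.07 for Hsd11b2 and 0.27 for Scnn1a, and with the GC curve as an offset it was −0.03 and 0.26. Nr3c2 had −0.20 without that library and 0.10 with the GC offset, and Scnn1b had 0.28 and 0.10. Within experiments 1 and 2 alone, Hsd11b2 had −0.18, Scnn1a 0.20, Scnn1b 0.27 and Nr3c2 −0.12. Within experiment 3 alone they had 2.14, 1.55, 0.81 and −0.95. Scnn1b was the member whose groups did not overlap upward, by density over the median gene, where 11.9% of 21373 genes with at least 60 reads in all did the same. Nr3c2 was the member whose dDAVP libraries all lay below, as 17.1% of those genes did. Each count is 1 of 9 and stands near the share over all genes. Without dDAVP experiment 3 these counts were 2 of 9 upward (Scnn1b and Kcnj1, against 13.6% of genes) and 2 of 9 downward (Scnn1g and Nr3c2, against 19.9%). With density divided by the GC curve, the dDAVP and vehicle libraries of Scnn1b (0.454 to 0.511 and 0.413 to 0.465) overlapped. Those of Nr3c2 (0.984 to 1.26 and 1.03 to 1.06) also overlapped. Those of Scnn1g (0.472 to 0.607 and 0.609 to 0.623) did not, and the share of all genes on that scale was not counted. The 0.607 of dDAVP experiment 3 and the 0.609 of vehicle experiment 3 rest on 214 and 230 reads. So narrow a gap is not read as a result about Scnn1g.

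**Figure D5:**
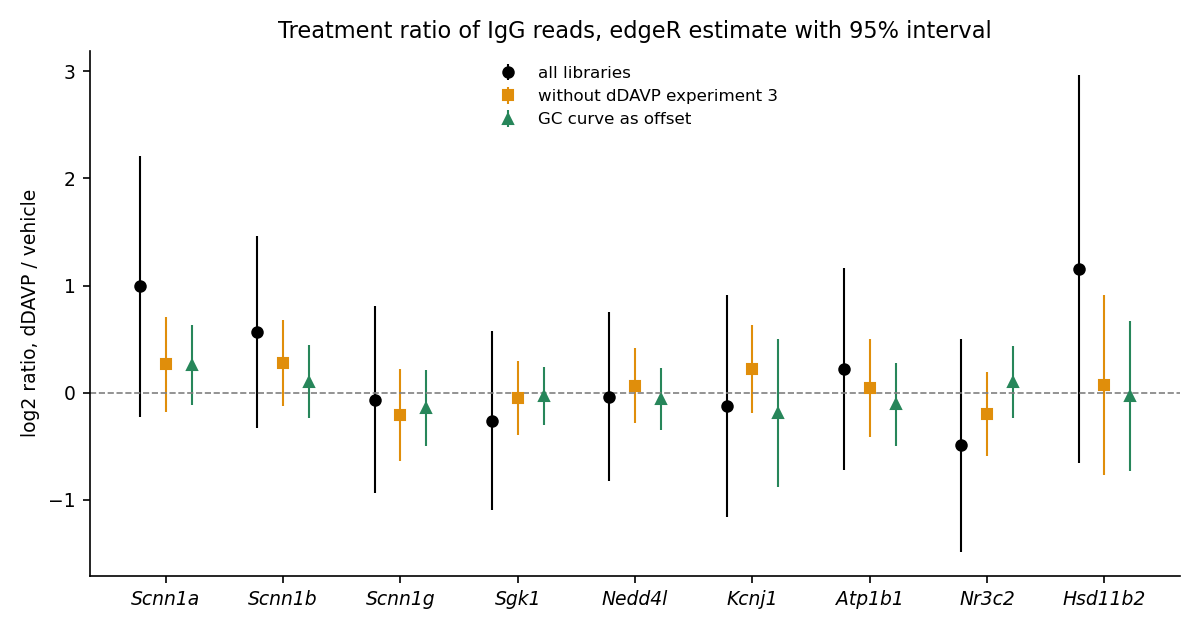
Log2 ratio of IgG reads, dDAVP over vehicle, for each of the 9 genes with its 95% interval from edgeR: all libraries (black), without dDAVP experiment 3 (orange) and with the GC curve as an offset (green). Every interval includes 0, and the ratios of Hsd11b2, 1.15, 0.07 and −0.03, move most.

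The wider pathway was taken as 55 other genes of sodium and potassium transport and its control, of which 53 had an interval. edgeR called 0 of the 53 (0 at an unadjusted p under 0.05; DESeq2 called 0, with Per1 alone at that p, 0.039 before adjustment). By sign, 27 were higher and 26 lower with dDAVP, with a median log2 ratio of 0.05. Per1, a clock gene that aldosterone induces, had the highest ratio, 1.37 ± 0.63 (SE), and a GC content of 56.3%. Its density was 0.702, 0.810 and 2.12 in the dDAVP libraries and 0.636, 0.729 and 0.430 in the vehicle libraries. Cul3, the scaffold of the ubiquitin ligase that removes WNK kinases, had the lowest, −1.12 ± 0.88 (SE), and a GC content of 35.8%. Its density was 0.738, 0.762 and 0.096 under dDAVP and 0.826, 0.830 and 1.06 under vehicle. As in the members, dDAVP experiment 3 was the extreme library for each. For each, edgeR's adjusted p was 0.619.

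By role, the median density over the median gene with vehicle was 1.22 ± 0.06 (SD, n = 2) for 9 other potassium channel genes and 1.03 ± 0.02 for 6 genes that activate SGK1. It was 1.00 ± 0.06 for 8 sodium cotransporters and exchangers, 0.919 ± 0.071 for 6 genes of the WNK pathway and 0.863 ± 0.062 for 9 genes of ENaC proteolysis and turnover. It was 0.788 ± 0.055 for 8 genes of the corticosteroid response and 0.758 ± 0.042 for 7 sodium pump genes (SD, n = 2). With dDAVP the order differed, and the cause was not tested. The samples spread more widely with dDAVP for all roles but the potassium channel and corticosteroid genes. Median GC content was 49.7% for the sodium pump genes, which were higher with dDAVP, and 42.3% for the WNK pathway, which was lower. The potassium channel genes had 1.34 ± 0.04, the sodium pump genes 1.21 ± 0.51, the ENaC turnover genes 0.985 ± 0.164 and the cotransporters 0.895 ± 0.184 (SD, n = 2). The genes that activate SGK1 had 0.831 ± 0.175, the corticosteroid genes 0.752 ± 0.034 and the WNK pathway 0.623 ± 0.270 (SD, n = 2). All 53 together had a median of 0.906 ± 0.055 with vehicle and 0.974 ± 0.130 with dDAVP (SD, n = 2), against 0.688 ± 0.049 and 0.742 ± 0.011 for the 9 members. The difference between the lists was not tested.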

How the data were processed

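Per the labels' protocols, chromatin was cross-linked with 1.11% formaldehyde, sheared to about 300 bp and sequenced as 50-bp reads, which the authors mapped to mm10 with BWA. The submitters' processing notes also list SAMtools and bedtools. Per the file headers, the deposited count is the number of reads overlapping each RefSeq transcript interval, and the deposited signal is the number of bases covered by at least 1 read. The deposited fraction is those bases over the interval length. Whether duplicates or poorly mapped reads were removed is not given in the sources used.

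The 6 libraries shared 33062 intervals, of which 32763 (99.1%) were named from RefSeq and GENCODE tables. Density used reads over 1 interval per gene, the longest, as library size. For experiments 1 and 2 of a group, counts were added and densities averaged to give 1 sample. The test was edgeR 4.0.16 in R 4.3.3 (TMM, filterByExpr, two-sided quasi-likelihood test, 0.05). DESeq2 1.42.0, other scalings, a replicate block, a GC offset and leaving out libraries were alternatives. The GC curve joins medians of density in 40 bins of GC content over genes of at least 2 kb. Within-experiment ratios used TMM-normalized counts with a prior count of 0.5 and have no test. Other values used Python 3.11.15, numpy 2.4.6, pandas 2.3.3 and scipy 1.17.1. The edgeR and GC steps were tested on simulated data. The members, gene lists and tests were chosen with earlier results of these data known. All 9 members are named. Of the wider list the genes with the highest and lowest ratio are named, with any at an unadjusted p under 0.05 in edgeR's test as described (there were 0), and the 3 genes nearest to the members' median profile.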

Additional observations from a re-analysis of the deposited data

How the results depend on the processing

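No setting called any of the 9 genes, any of the 53 pathway genes or any interval: 0 under 6 separate libraries, RLE size factors, DESeq2, no filter on low counts, the GC offset and each library left out. With the replicate number as a block the count was also 0, and the intervals at an unadjusted p under 0.05 were 22 higher and 188 lower, against 236 higher and 0 lower without it. Labels share experiment numbers, which the main test did not use as pairs. Same-numbered libraries deviated in opposite directions (correlations of −0.453, −0.490 and −0.671 across genes). So did dDAVP experiment 1 with vehicle experiment 2 (−0.494) and dDAVP experiment 2 with vehicle experiment 1 (−0.453), while the remaining pairs had 0.464 to 0.656. As experiments 1 and 2 of a group were nearly alike, these values cannot show whether equal numbers were paired. The direction of 7 uncalled log2 ratios turned under some setting, and those of Scnn1a and Scnn1b did not under any that was run. With the GC offset these 2 fell from 0.99 to 0.26 and from 0.56 to 0.10. Nedd4l had 8.0e-05 and Kcnj1 0.0099 with 6 separate libraries. With the GC offset Atp1b1 had −0.108, Nr3c2 0.097 and Hsd11b2 −0.029. Within experiments 1 and 2 alone, Sgk1 had 0.045, Nedd4l 0.032, Kcnj1 0.235, Atp1b1 −0.090 and Hsd11b2 −0.181, and within experiment 3 alone Scnn1g had 0.085. Leaving out a library gave −0.079 to 0.067 for Nedd4l and −0.158 to 0.220 for Kcnj1, the highest in each case without dDAVP experiment 3. With an experiment 3 library left out, its group is 1 sample, assumed to vary like the other group.

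The median density of the 9 genes was 0.838 with dDAVP and 0.774 with vehicle over the median gene of each chromosome, and 0.710 and 0.748 over the GC curve. Among like intervals their median percentile was 10.25 with vehicle and 33.75 ± 32.9 (SD, n = 2) with dDAVP. With vehicle and dDAVP in turn, it was 26 and 23.75 among genes of like GC content, 22.4 and 31.6 among all genes, and 19.8 and 31.4 among genes within 1 Mb, a set added after seeing the data. For these moves the cause was not tested. In the pathway list 1 gene had an unadjusted p under 0.05 in each of 4 other fits, named after their values were seen: Fxyd5 with 6 separate libraries (0.048), Cul3 with the block (0.020), Mlst8 with the GC offset (0.035, log2 ratio of −0.80 against 0.17 without it) and Per1 with DESeq2 (0.039). Over all intervals, 1201 of 29700, then 210, 278 and 1117 of 30912, were at that p in those 4 fits in turn, so 1 of 53 is not read as a result about these genes. Depth limits Hsd11b2 most, with 19 to 30 reads in 5 libraries.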

Other observations

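Each gene was also set beside its neighbours, the named genes within 1 Mb on either side, a comparison added after seeing the data. Scnn1b had 0.549 to 0.607 times the median of its 23 neighbours in the vehicle libraries and 0.768, 0.735 and 1.03 in dDAVP experiments 1, 2 and 3. Nedd4l had 0.702 to 0.763 times its 19 neighbours in all 6 libraries, and its neighbours themselves stood at 0.722 to 0.787 times the median gene. Sgk1 had 0.850 to 1.08 times its 18 neighbours, which stood at 1.14 to 1.41, so the highest level among the 9 genes was shared by the genes around it. Nr3c2 had 0.834 to 1.01 times its 9 neighbours. Hsd11b2 had 0.514 to 1.31 times its 77 neighbours, with dDAVP experiment 3 highest.

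The genes whose density over the 6 libraries was nearest to the median of the 9 were Snrnp40, Plac8 and Oacyl, among 13365 genes with at least 50 reads in each library. Their root mean square differences were 0.07, 0.09 and 0.09 on the log2 scale. Their GC contents were 45.2%, 44.6% and 45.6%, close to the median of 45.8% for the 9 members and of 45.7% for all genes. Density in dDAVP experiment 3 followed GC content, so a choice by density already favours genes of like GC. Within the pathway list the nearest of 44 were the potassium channel gene Kcnq1 (0.23), the sodium-proton exchanger gene Slc9a3 (0.28) and Nedd4, the relative of Nedd4l (0.30). Of the members Atp1b1 was nearest to that median profile (0.21) and Sgk1 farthest (0.85).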
